A study of Mus musculus and Homo sapiens with 34 samples.

Results

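The subject is the human line HT29 set against the mouse lines CT26 and MC38, all labelled colorectal carcinoma by the submitters and grown as spheroids without added matrix. The members are the 17 libraries of cells alone among the 34 libraries of the series: 6 of HT29, 6 of CT26 and 5 of MC38. Expression was compared over the 16660 genes whose symbol, ignoring case, is found exactly once in the human table (58870 genes) and once in the mouse table (55450 genes). The 17 other libraries carried decellularised SIS ECM, a matrix preparation, and enter no comparison here. All 3 lines were kept in RPMI medium with fetal bovine serum and formed spheroids in U-bottom plates of ultra-low attachment. PolyA RNA was taken on day 7 from tubes that pooled 10 spheroids each. No treatment or engineered allele is named for any of the 3 groups. CT26 derives from a BALB/c mouse and MC38 from a C57BL/6 mouse, whereas HT29 came from a human colon adenocarcinoma. Each species pool was sequenced on its own, and there is 1 human line. Species, line, sequencing pool and gene length therefore cannot be told apart in any difference between HT29 and the mouse lines. The labels do not say whether the libraries of a line came from separate cultures, so every p-value is set by a between-library spread that could be purely technical.

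Epithelial cells hold together through E-cadherin adherens junctions, claudin and occludin tight junctions and desmosomes, and they build keratin filaments. In epithelial to mesenchymal transition, repressors of the ZEB, SNAI and TWIST families silence these genes by binding E-box sequences in their promoters, and cells turn on vimentin, fibronectin and other matrix genes. The gut epithelium adds a second layer of identity: HNF4 and CDX factors drive enterocyte genes of the brush border, SPDEF and ATOH1 act in secretory cells, and LGR5 marks the dividing crypt base cells that depend on Wnt. Receptors decide which signals a tumour cell can read, and epithelial and mesenchymal cells are known to carry different sets of them.

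Total counts per library, in units of 1e6 counts, ran from 26.3 to 37.002 in HT29, 16.05 to 20.3 in CT26 and 20.3 to 24.1 in MC38, so the human libraries were the deeper ones. The matched genes took 92.7 to 92.8% of the counts in HT29, 86.7 to 88.9% in CT26 and 88.6 to 90.97% in MC38. Levels are given in CPM (counts per 1e6 counts of the tested genes, after TMM scaling), and are compared between lines within a gene, not between genes, since no gene length enters. The position of a gene within a library is its percentile rank among the 16660 genes, from 0 to 100, with ties averaged. A gene with no count sat at percentile 11.997 to 12.4 in HT29, 16.4 to 17.1 in CT26 and 13.7 to 14.05 in MC38, because 23.998 to 24.7%, 32.7 to 34.2% and 27.5 to 28.1% of the genes had none there. Ranks are coarse at that end: a single count lifted a gene to between 34.4 and 35.7 in CT26 libraries, and 10 counts corresponded to 32.9 to 33.99 in HT29, 41.6 to 42.4 in CT26 and 37.2 to 37.7 in MC38. Rank differences below those percentiles rest on a few reads. Among the mouse libraries, those numbered 1 to 3 had a lower mitochondrial share within each line than those numbered 4 to 6, and mitochondrial share ran from 3.19 to 8.08% over all 11.

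The rank order of HT29 stood far from that of either mouse line. Across genes, which are not independent replicates, Spearman's rho of the mean ranks was 0.753 between HT29 and CT26 (36 library pairs, 0.743 to 0.758) and 0.755 between HT29 and MC38 (30 pairs, 0.745 to 0.756), against 0.909 between CT26 and MC38 (30 pairs, 0.901 to 0.909). Libraries of the same line gave 0.984 to 0.993. The mouse lines share a species, a gene annotation and a sequencing pool, which HT29 does not. The median gene lay 11.99 percentile points from its CT26 rank and 11.6 points from its MC38 rank in HT29, and 4.54 points apart between the mouse lines.

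With 17 libraries this close within each line, a p-value alone separated almost everything. Of the 12034 genes that passed the filter on low counts, 91.7% differed between HT29 and CT26 and 92.5% between HT29 and MC38 at an adjusted p below 0.05 (edgeR's 2-sided quasi-likelihood test with Benjamini-Hochberg adjustment). A gene is therefore called higher or lower in HT29 here only if it passed that test against both mouse lines and its mean percentile also lay at least 20 points from each of them in that direction. This rule called 1526 genes higher (12.7% of those tested) and 1147 lower (9.53%), and in all 2673 the HT29 libraries did not overlap the mouse libraries. These percentages are the background for every count of members below: 22.2% of all tested genes were called in either direction. Of the tested genes, 647 were above 10 CPM in HT29 and below 1 CPM in both mouse lines. Another 281 were below 1 CPM in HT29 and above 10 CPM in both mouse lines. Many such genes passed the filter only through the lines where they are high, so a list's share of calls partly restates the filter. The rank distance, not the p-value, decided the calls. A gene that ranked less than 20 points below the top of the scale in either mouse line could not be called higher, however large its fold change. Against a single line the same rule gave 17.2% higher and 13.9% lower than CT26, and 16.3% higher and 14.5% lower than MC38. Between the mouse lines 77.3% of the genes passed the test, 6.91% were higher by 20 points in MC38 and 3.14% lower. In libraries 1 to 3 alone, 1524 genes were higher and 1149 lower in HT29, and in those numbered 4 to 6 alone 1496 and 1169. HT29 did not overlap the mouse libraries on the higher side in 35.3% of the genes and on the lower side in 35.9%. The median log2 fold change of all tested genes was 0.28 against CT26 and 0.10 against MC38 with TMM scaling, and 0.27 and 0.12 with RLE size factors, so fold changes below should be read against those shifts. The gene groups described below hold 514 entries in 18 lists, of which 14 had no unique match. List medians below are over all matched members, tested or not, and stand beside a median percentile over all matched genes of 49.99 in HT29, 50.1 in CT26 and 50.1 in MC38.

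**Figure D1:**
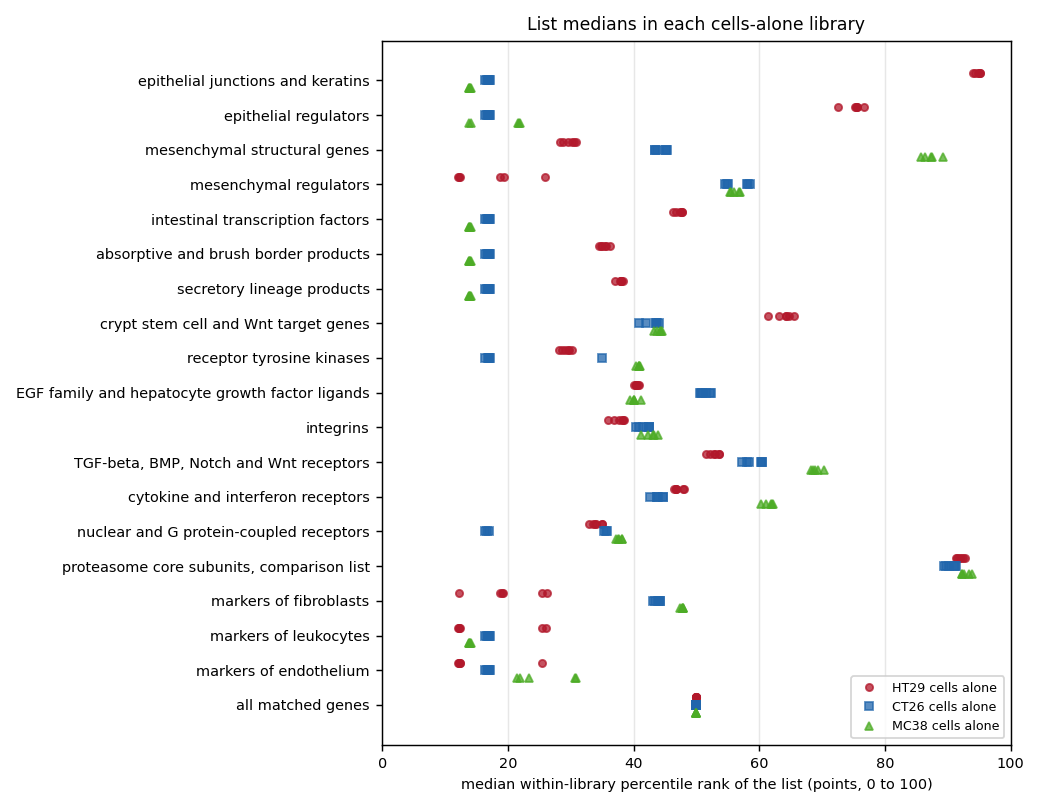
Median percentile rank of each gene list in every cells-alone library, with HT29, CT26 and MC38 libraries as separate points. The epithelial lists sit near percentile 95 and 75 in HT29 and below 22 in the mouse libraries, the mesenchymal regulators show the opposite order, and the proteasome list lies above 89 in all 3 lines.

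Epithelial junction and keratin genes were almost all expressed in HT29 and at or near 0 in both mouse lines. Of the 35 genes in this list, all 35 were tested, 32 were called higher in HT29 (background 12.7%) and 0 lower. The list's median percentile was 94.9 in HT29, 19.9 in CT26 and 17.03 in MC38. In 28 of the 35 the mean HT29 level was above 10 CPM while both mouse lines were below 1 CPM, and 17 members had no count in any CT26 library and 16 none in any MC38 library. The labels call both mouse lines colorectal carcinoma, an epithelial tumour. The epithelial markers CDH1, EPCAM and KRT8 were at or near 0 in both, which goes against that name. Other colorectal epithelial markers, given below, were mixed in CT26: KRT18, KRT20, CDH17 and CDX2 had counts in every CT26 library, and VIL1 was near 0. In MC38, KRT20 and CDX2 had no read, and KRT18, CDH17 and VIL1 were near 0. LGALS4 was low in both mouse lines but not absent. CT26 and MC38 are therefore referred to by their line names only. Across lines, fewer cells of a type and less RNA per cell cannot be told apart in these bulk libraries.

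CDH1 encodes E-cadherin, the adhesion molecule of adherens junctions (mouse Cdh1 on GRCm38 chromosome 8, 106603351 to 106670246, plus strand). Its level was 406 to 575 CPM in HT29 (median 501), 0 in all 6 CT26 libraries, and 0.668, 0.991, 1.02, 0.648 and 0.581 CPM in MC38. Every HT29 library lay far above every mouse library, and CT26 had no count. HT29 exceeded MC38 by 9.32 ± 0.15 on the log2 scale (SE; edgeR adjusted p = 1.6e-19) and was at least 14921-fold above CT26, where the bound takes 3 counts over all CT26 libraries as the limit of a count of 0. EPCAM, an epithelial adhesion glycoprotein (mouse Epcam on chromosome 17, 87635979 to 87651129, plus strand), was 559.6 to 585 CPM in HT29 (median 564), 0 in all 6 CT26 libraries, and 0 in all 5 MC38 libraries. HT29 was thus at least 16951-fold above CT26 and at least 19739-fold above MC38 in EPCAM. MAL2, a protein of apical transport, was 1220.3 to 1567 CPM in HT29 (median 1307), 0 in all 6 CT26 libraries, and 0 in all 5 MC38 libraries. CLDN4, a tight junction claudin, was 459 to 556 CPM in HT29 (median 536), 0 in all 6 CT26 libraries, and 0 in all 5 MC38 libraries. CLDN7, another claudin, was 186 to 207 CPM in HT29 (median 206), 0 in all 6 CT26 libraries, and 0 in all 5 MC38 libraries. The 3 latter genes split the lines as EPCAM does, with HT29 libraries close to each other and no read in the mouse libraries.

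Keratins gave a small exception in CT26. KRT8, which pairs with KRT18 in the filaments of simple epithelia, was 4312 to 4835 CPM in HT29 (median 4624), 0 to 0.146 CPM in CT26 (median 0.0344), and 0, 0, 0, 0 and 0.0447 CPM in MC38. KRT18 was 2416 to 2803 CPM in HT29 (median 2629), 6.49 to 10.96 CPM in CT26 (median 8.21), and 0, 0, 0, 0.0997 and 0 CPM in MC38. KRT18 thus had low but regular counts in every CT26 library, without its partner KRT8 and nearly without KRT19, the other simple-epithelial keratin, at mean percentile 99.6 in HT29, 33.6 in CT26 and 13.9 in MC38. KRT8 and KRT18 have many processed pseudogenes, so how the counting divided their reads is uncertain. JUP (plakoglobin), a member shared by desmosomes and adherens junctions, kept low levels in the mouse lines, with a mean percentile of 97.9 in HT29, 46.2 in CT26 and 42.3 in MC38. The 3 members that were not called were TJP1, CLDN1 and KRT7. TJP1 (ZO-1) stood at percentile 95.8 in HT29, 95.2 in CT26 and 90.7 in MC38, CLDN1 at percentile 57.03 in HT29, 19.9 in CT26 and 42.9 in MC38 and KRT7 at percentile 40.8 in HT29, 41.9 in CT26 and 24.4 in MC38.

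E-box repressors are known to bind in promoters of epithelial genes, so the windows of 4 members at or near 0 in the mouse lines are shown. Only windows that hold the E-box were taken for display. They are mouse sequences from RefSeq on GRCm38.p6, 250 bases up to the transcription start, 5′ to 3′ on the gene's own strand. Capitals mark the E-box CACCTG or its reverse complement CAGGTG.
Epcam (chr17:87635729-87635978, plus strand): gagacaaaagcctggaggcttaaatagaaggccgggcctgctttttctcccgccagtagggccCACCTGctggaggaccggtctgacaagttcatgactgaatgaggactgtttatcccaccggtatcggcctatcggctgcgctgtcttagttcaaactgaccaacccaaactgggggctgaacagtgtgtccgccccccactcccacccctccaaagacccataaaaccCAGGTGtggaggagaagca
Cldn4 (chr5:134946935-134947184, minus strand): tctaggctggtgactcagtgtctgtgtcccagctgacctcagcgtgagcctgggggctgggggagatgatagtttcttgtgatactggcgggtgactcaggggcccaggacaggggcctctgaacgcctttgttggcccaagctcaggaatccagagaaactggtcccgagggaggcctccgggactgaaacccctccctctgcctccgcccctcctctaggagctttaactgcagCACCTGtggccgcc
Cldn7 (chr11:69965171-69965420, plus strand): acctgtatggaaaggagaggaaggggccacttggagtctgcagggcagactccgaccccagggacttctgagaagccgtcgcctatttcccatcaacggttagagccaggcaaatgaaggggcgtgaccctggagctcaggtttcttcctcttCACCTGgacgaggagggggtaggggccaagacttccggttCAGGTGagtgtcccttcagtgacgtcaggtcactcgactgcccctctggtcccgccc
Krt8 (chr15:102004343-102004592, minus strand): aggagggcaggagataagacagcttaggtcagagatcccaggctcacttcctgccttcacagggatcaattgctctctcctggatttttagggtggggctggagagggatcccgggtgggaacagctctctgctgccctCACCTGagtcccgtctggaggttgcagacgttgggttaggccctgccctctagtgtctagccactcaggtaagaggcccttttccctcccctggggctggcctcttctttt
The first base of the match lay 187 and 19 bases before the start in Epcam, 14 in Cldn4, 97 and 57 in Cldn7, and 111 in Krt8. Over the whole window of 250 bases before to 50 after the start, on both strands, 25 of 40 windows of the epithelial junction and regulator genes held the E-box (62.5%; 21 of 30 genes with a window). The share was 20.2% of all 32851 mouse windows, 19.9% of the 15759 windows of matched genes, 44.2% of 52 windows of the absorptive and secretory lists, 14.8% of 27 proteasome windows and 10.8% of 37 windows of the mesenchymal lists. A match is a run of letters, and binding was not measured in these libraries. Human windows were not examined, and a part of the E-box in the difference between HT29 and the mouse lines was not tested.

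Transcription and splicing factors of epithelia followed the junction genes. Of 15 listed epithelial regulators, TP63 had no unique match, the other 14 were tested, 11 were called higher in HT29 (background 12.7%) and 0 lower. The list's median percentile was 75.2 in HT29, 16.8 in CT26 and 20.1 in MC38. ESRP1, which directs the epithelial pattern of splicing, was 255 to 291 CPM in HT29 (median 280.5), 0 in all 6 CT26 libraries, and 0.0477, 0, 0, 0.150 and 0.0447 CPM in MC38. No mouse library came near the HT29 values. EHF, an ETS factor of epithelia, was 324 to 360.5 CPM in HT29 (median 339), 0 in all 6 CT26 libraries, and 0 in all 5 MC38 libraries. ELF3, a second epithelial ETS factor, was 290.3 to 371 CPM in HT29 (median 348), 0 in all 6 CT26 libraries, and 0.0477, 0, 0, 0 and 0.0447 CPM in MC38. GRHL2, a grainyhead factor that activates junction genes, stood at percentile 79.7 in HT29, 29.4 in CT26 and 27.5 in MC38, with mean levels of 66.1, 0.0557 and 0.0577 CPM. FOXA1, a pioneer factor of endoderm, was called higher too but kept a level in CT26, with mean percentiles of 86.5 in HT29, 55.9 in CT26 and 39.9 in MC38. The 3 regulators that were not called were KLF5, GRHL1 and KLF4. KLF5, a factor of proliferating crypt cells, stood at percentile 98.3 in HT29, 78.5 in CT26 and 43.2 in MC38, just under the 20-point distance from CT26. KLF4, known from differentiated gut cells and from reprogramming, was higher in rank in the mouse lines, at percentile 57.9 in HT29, 80.8 in CT26 and 75.5 in MC38, short of the distance from MC38.

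**Figure D2:**
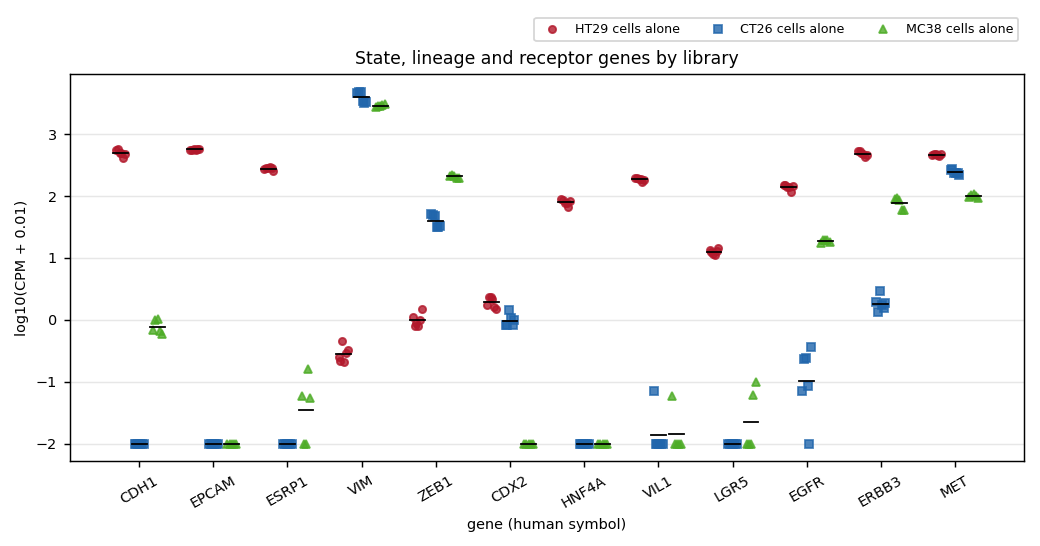
CPM of the 12 anchor genes, 1 point per library, as log10(CPM + 0.01), where bars are means of the plotted values and -2 stands for no count. CDH1, EPCAM, ESRP1, HNF4A and VIL1 lie above 66 CPM in every HT29 library and at or below about 1 CPM in the mouse libraries, VIM and ZEB1 have the opposite order, and MET lies above 93 CPM in all 17 libraries.

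Mesenchymal genes divided differently from epithelial ones, and the mouse lines also differed from each other in them. Of 30 structural mesenchymal genes 25 were tested, 9 were called lower in HT29 (background 9.53%), 2 higher and 14 neither. The list's median percentile was 29.2 in HT29, 44.2 in CT26 and 87.2 in MC38, so MC38 ranked far above CT26 as well. VIM, the intermediate filament of mesenchymal cells, was 0.199 to 0.446 CPM in HT29 (median 0.260), 3192 to 4790.1 CPM in CT26 (median 4024), and 2775, 2809, 2872, 2909.8 and 3067 CPM in MC38. The HT29 libraries did not overlap the 11 mouse libraries, and HT29 differed from CT26 by -13.78 ± 0.20 and from MC38 by -13.31 ± 0.20 on the log2 scale (SE; edgeR adjusted p = 3.8e-24 and 7.2e-24). CALD1 (caldesmon), an actin-binding protein, was 0.0352 to 0.138 CPM in HT29 (median 0.0733), 1029 to 1145 CPM in CT26 (median 1090.2), and 753, 779, 807, 759.8 and 726 CPM in MC38. SPARC, a secreted matrix protein, was 0 to 0.0897 CPM in HT29 (median 0.0176), 257 to 343 CPM in CT26 (median 294), and 1694, 1662, 1627, 1390.4 and 1493 CPM in MC38. FN1, the matrix protein fibronectin, stood at percentile 39.99 in HT29, 99.7 in CT26 and 99.9 in MC38. CDH2 (N-cadherin), the cadherin of mesenchymal cells, was higher in CT26 than in MC38, with a mean percentile of 14.4 in HT29, 90.6 in CT26 and 60.4 in MC38.

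Fibrillar and microfibrillar collagens set the mouse lines apart from each other. COL6A2 was 0 to 0.120 CPM in HT29 (median 0), 0 to 0.224 CPM in CT26 (median 0), and 1382, 1336, 1207, 921 and 1050.2 CPM in MC38. CT26 was therefore as low as HT29 in a gene that MC38 held at percentile 99.6. COL5A2 repeated this order, at percentile 34.6 in HT29, 43.5 in CT26 and 97.96 in MC38, as did POSTN (periostin) at percentile 27.3 in HT29, 16.8 in CT26 and 95.9 in MC38 and TNC (tenascin C) at percentile 40.9 in HT29, 40.96 in CT26 and 91.6 in MC38. COL1A2 went the other way between the mouse lines, at percentile 21.03 in HT29, 98.7 in CT26 and 33.4 in MC38, with MC38 close to 0. Over all tested genes 411 (3.42%) lay within 10 points of CT26 and 20 or more from MC38 in HT29, and 355 (2.95%) the reverse. The 2 members called higher in HT29 were TAGLN and ACTA2, both actin-associated genes of smooth muscle. TAGLN was 11.7 to 13.9 CPM in HT29 (median 12.8), 0 to 0.247 CPM in CT26 (median 0.0344), and 0, 0.0944, 0.102, 0.0499 and 0.0447 CPM in MC38, and ACTA2 was 0.955 to 1.80 CPM in HT29 (median 1.28), 0 in all 6 CT26 libraries, and 0, 0, 0, 0.0499 and 0 CPM in MC38. Both calls rest on few mouse reads: the distance from the nearer line fell to 19.0 points for TAGLN without MC38 library 1, and for ACTA2 to 19.98 without MC38 library 1 and 19.97 without MC38 library 2, and it was 15.8 for ACTA2 in libraries 4 to 6 alone. S100A4, a calcium-binding protein often used as a mesenchymal marker, was not called, at percentile 98.7 in HT29, 99.6 in CT26 and 99.7 in MC38.

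Most tested regulators of the mesenchymal state were lower in HT29. Of 18 listed genes 15 were tested, 10 were called lower (background 9.53%) and 0 higher. The list's median percentile was 15.6 in HT29, 56.5 in CT26 and 55.5 in MC38. ZEB1, an E-box repressor of CDH1, was 0.795 to 1.49 CPM in HT29 (median 0.938), 31.6 to 50.8 CPM in CT26 (median 40.01), and 214, 218, 212, 198 and 199 CPM in MC38. ZEB1 was thus low but not absent in HT29 and higher in MC38 than in CT26. ZEB2, its paralog, was 0 to 0.0318 CPM in HT29 (median 0), 249 to 353 CPM in CT26 (median 293), and 244, 253, 247, 209 and 197 CPM in MC38. PRRX1, a homeobox factor of mesenchyme, was 0 to 0.0392 CPM in HT29 (median 0), 288 to 393 CPM in CT26 (median 339), and 183, 197, 189, 261 and 235 CPM in MC38. TCF4, a basic helix-loop-helix factor, was 0.0569 to 0.239 CPM in HT29 (median 0.111), 96.7 to 150.2 CPM in CT26 (median 124), and 227, 230.0, 223, 220.1 and 203 CPM in MC38. SNAI2 and TWIST1 were called lower as well, SNAI2 at percentile 14.5 in HT29, 65.7 in CT26 and 55.7 in MC38 and TWIST1 at percentile 12.2 in HT29, 72.5 in CT26 and 55.2 in MC38. SNAI1 was not called, at percentile 35.8 in HT29, 45.4 in CT26 and 52.8 in MC38, with a mean HT29 level of 0.699 CPM. HMGA2, a chromatin protein of embryonic tissue, was called lower but kept 21.02 CPM in HT29 against 819 in CT26 and 236 in MC38. The heat map of epithelial and mesenchymal genes shows members of the 4 lists by library.

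**Figure D3:**
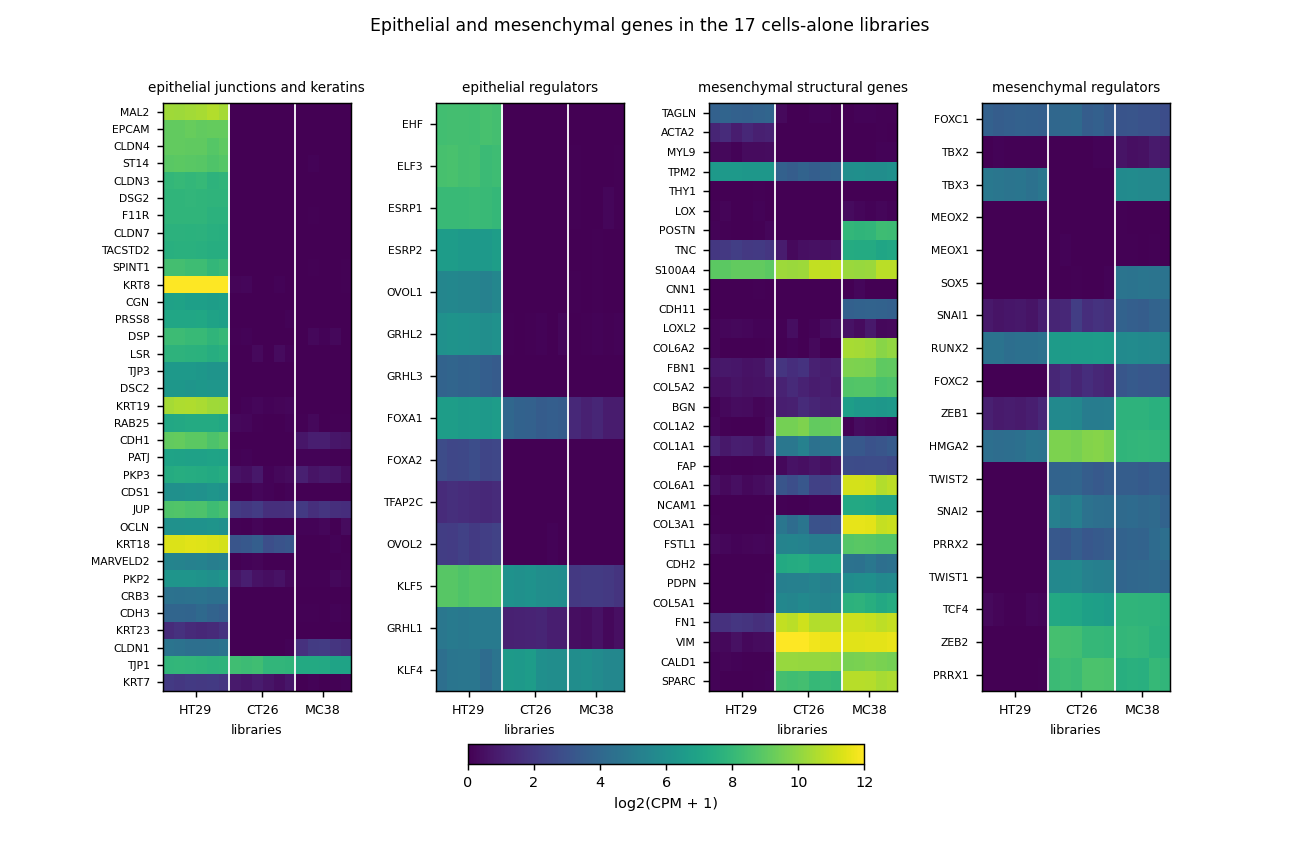
Heat map of log2(CPM + 1) for epithelial junction, epithelial regulator, mesenchymal structural and mesenchymal regulator genes, 1 row per gene and 1 column per cells-alone library, with white lines between HT29, CT26 and MC38; values above 12 take the colour of 12. Most rows of the left panels are bright in HT29 alone (exceptions include TJP1, KLF4 and KLF5), and in the structural panel COL6A2 and COL5A2 are bright in MC38 but dark in CT26.

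Markers of other cell types moved with part of this contrast. The summed level of 12 fibroblast markers was 0.738 to 1.77 CPM in HT29, 616 to 938 CPM in CT26 and 3911 to 4876 CPM in MC38. Of the 8 fibroblast markers tested 4 were called lower in HT29 and 0 higher. DCN (decorin), a matrix proteoglycan of fibroblasts, was 0 in all 6 HT29 libraries, 2.36 to 3.51 CPM in CT26 (median 3.04), and 1145, 1168, 1167, 1346 and 1256 CPM in MC38, while LUM (lumican) was at a mean of 0.0369, 0.00961 and 0.397 CPM. Of the 12, 5 are also in the mesenchymal structural list (FAP, THY1, COL1A1, COL1A2 and COL3A1) and 2 among the receptor tyrosine kinases (PDGFRA and PDGFRB). Fibroblast genes are also known from tumour cells in a mesenchymal state, and their part in the mesenchymal results was not tested. The 12 leukocyte markers summed to 23.2 to 27.6 CPM in HT29, 1.54 to 3.45 CPM in CT26 and 0.698 to 1.34 CPM in MC38, with 3 tested and 0 called. PTPRC (CD45), the defining leukocyte marker, stayed at a mean of 0.0170, 0.102 and 0.0191 CPM, and CD68 made up most of the HT29 sum at 23.4 CPM. The 10 endothelial markers summed to 36.7 to 43.9 CPM in HT29, 0.288 to 0.772 CPM in CT26 and 7.06 to 9.54 CPM in MC38, with 3 tested and 1 called higher in HT29, the junction protein ESAM at 39.1 CPM against 0.239 and 0.193. CDH5, the endothelial cadherin, was at a mean of 0.00474 CPM in HT29 and at most 0.0481 in the mouse lines.

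HNF4 factors and several other intestinal transcription factors were called higher in HT29, but the CDX genes were not. Of 25 listed factors 19 were tested, 9 were called higher in HT29 (background 12.7%), 1 lower (background 9.53%) and 9 neither. The count called lower was 2 without CT26 library 2, without CT26 library 3 and in the libraries numbered 4 to 6 alone. The median percentile of the list was 47.2 in HT29, 16.8 in CT26 and 17.01 in MC38. Mean levels were below 1 CPM for 9 of the 25 in HT29, 19 in CT26 and 19 in MC38. Many tested members thus passed the filter through HT29, and the share called higher partly restates that filter. HNF4A, the nuclear receptor that drives enterocyte genes, was 66.5 to 90.9 CPM in HT29 (median 79.6), 0 in all 6 CT26 libraries, and 0 in all 5 MC38 libraries. HNF4G, its intestinal paralog, was 64.02 to 74.05 CPM in HT29 (median 65.99), 0 in all 6 CT26 libraries, and 0 in all 5 MC38 libraries. Neither gene had a read in any mouse library. CREB3L1, an endoplasmic reticulum-bound factor of secretory cells, was 80.2 to 124 CPM in HT29 (median 108), 0 to 0.0577 CPM in CT26 (median 0), and 0.143, 0.0472, 0.102, 0 and 0.0447 CPM in MC38. GATA6, an endodermal factor, was called higher at percentile 66.4 in HT29, 16.8 in CT26 and 42.4 in MC38. CDX2, the master factor of intestinal identity, was 1.49 to 2.36 CPM in HT29 (median 1.93), 0.801 to 1.44 CPM in CT26 (median 0.904), and 0 in all 5 MC38 libraries. CDX2 was therefore low in HT29 and CT26 and absent from MC38 reads, and it was not called, with percentiles of 39.2 in HT29, 43.1 in CT26 and 13.9 in MC38. In CPM every HT29 library lay above every CT26 library, the reverse of the rank order. The same low count ranks higher in CT26: 10 counts corresponded to percentile 41.6 to 42.4 there and 32.9 to 33.99 in HT29. CDX1 was low throughout, at a mean of 1.09 CPM in HT29 and at most 0.0278 in the mouse lines. PDX1, known from pancreas and duodenum, followed the CDX2 rank order at percentile 39.7 in HT29, 46.4 in CT26 and 13.9 in MC38. GATA4, a factor of the proximal gut, had counts in CT26 alone among the 17 libraries, at a mean of 5.70 CPM against 0 counts in HT29 and MC38.

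Several genes of the absorptive brush border were expressed in HT29 and at or near 0 in both mouse lines. Of 36 listed genes 32 were matched (SI, CA1, CA2 and CA4 were not), 18 tested, 12 called higher in HT29 (background 12.7%), 1 lower (background 9.53%) and 5 neither; the other 14 were too low to be tested. Their median percentile was 35.4 in HT29, 19.9 in CT26 and 16.99 in MC38, over all 32. Mean levels were below 1 CPM for 18 of the 32 in HT29, 25 in CT26 and 31 in MC38. Here too the share of tested members called higher partly restates the filter. VIL1 (villin), which bundles actin in microvilli, was 171 to 199 CPM in HT29 (median 187), 0 to 0.0616 CPM in CT26 (median 0), and 0.0477, 0, 0, 0 and 0 CPM in MC38. USH1C (harmonin), which tethers microvilli to each other, was 136 to 152 CPM in HT29 (median 149.8), 0 in all 6 CT26 libraries, and 0 in all 5 MC38 libraries. EPS8L3 was 102.1 to 115 CPM in HT29 (median 112), 0 in all 6 CT26 libraries, and 0, 0.0472, 0, 0 and 0 CPM in MC38. LGALS4, a gut lectin, stood at percentile 98.8 in HT29, 46.9 in CT26 and 37.8 in MC38. KRT20, the keratin of differentiated gut cells, was 435 to 492 CPM in HT29 (median 457), 42.6 to 61.4 CPM in CT26 (median 54.9), and 0 in all 5 MC38 libraries. KRT20 was thus present at a clear level in CT26, and it was absent from MC38 reads. CDH17 (liver-intestine cadherin) was 13.03 to 14.2 CPM in HT29 (median 13.8), 2.00 to 4.23 CPM in CT26 (median 3.01), and 0, 0.0472, 0.0510, 0.0499 and 0 CPM in MC38, and its rank in HT29 lay within 10 points of CT26. CEACAM1, an adhesion molecule, held a similar middle place at percentile 92.7 in HT29, 64.3 in CT26 and 35.6 in MC38. FABP1, the fatty acid binding protein of mature enterocytes, reached a mean of 0.777 CPM in HT29 and had 0 counts in the mouse lines, and was not called. MTTP, which loads lipid into lipoproteins, was the member called lower, at 21.7 CPM in CT26 and 8.498 in MC38 against 3 counts over all HT29 libraries.

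Most tested secretory genes were higher in HT29. Of 32 listed genes 22 were tested, 14 were called higher (background 12.7%) and 0 lower. The median over all 32 was 37.995 in HT29, 16.8 in CT26 and 17.04 in MC38. Mean levels were below 1 CPM for 14 of the 32 in HT29, 30 in CT26 and 29 in MC38. Many tested members thus passed the filter through HT29, and the share called higher partly restates that filter. AGR2, which folds mucins in the endoplasmic reticulum, was 679 to 814 CPM in HT29 (median 735), 0 in all 6 CT26 libraries, and 0 in all 5 MC38 libraries. MUC13, a membrane mucin, was 108 to 129.8 CPM in HT29 (median 121), 0 in all 6 CT26 libraries, and 0, 0, 0, 0.0499 and 0.0894 CPM in MC38. MUC20, another membrane mucin, was 46.3 to 62.9 CPM in HT29 (median 55.5), 0 in all 6 CT26 libraries, and 0, 0.0944, 0, 0.150 and 0 CPM in MC38. SPDEF, a factor of goblet cells, was called higher in the list of intestinal factors, at percentile 76.7 in HT29, 19.9 in CT26 and 13.9 in MC38. The gel-forming mucin MUC2 was not called: its mean level was 6.26 CPM in HT29, 0.215 in CT26 and 0.150 in MC38. TFF3, a trefoil peptide of goblet cells, was called higher at a mean of 2.14 CPM with 0 counts in both mouse lines. With a distance of 30 points, 5 of the 14 secretory calls were left. The enteroendocrine marker CHGA had 0 counts in all 17 libraries, and ATOH1, which specifies secretory cells, was too low to be tested. DCLK1, known from tuft cells and also from neurons and stroma, was 0 to 0.0392 CPM in HT29 (median 0), 0 to 0.0689 CPM in CT26 (median 0), and 758, 753, 727, 672 and 606 CPM in MC38. Reads of DCLK1 came almost wholly from MC38, and PCSK1, a prohormone convertase, was likewise at 2.40 CPM in MC38 and 0 in the other lines.

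Crypt stem cell and Wnt target genes did not move one way. Of 30 listed genes 29 were matched (CD24 was not), 26 tested, 9 called higher in HT29 (background 12.7%), 3 lower (background 9.53%) and 14 neither. Median percentiles over the 29 were 64.2 in HT29, 42.9 in CT26 and 43.99 in MC38. LGR5, the crypt base receptor for R-spondin, was 11.2 to 14.3 CPM in HT29 (median 12.7), 0 in all 6 CT26 libraries, and 0, 0, 0, 0.0499 and 0.0894 CPM in MC38. The HT29 libraries lay above all mouse libraries, and the distance from the nearer line was 29.1 points with all libraries and 18.8 in libraries 4 to 6 alone, which is below the threshold. RNF43, a Wnt feedback ligase, was 229.8 to 264 CPM in HT29 (median 249), 0 to 0.0746 CPM in CT26 (median 0.0351), and 0 in all 5 MC38 libraries. AXIN2, the classical Wnt target, was called higher at percentile 73.5 in HT29, 30.2 in CT26 and 39.8 in MC38. PROM1 (CD133) was 82.5 to 91.6 CPM in HT29 (median 85.8), 0 to 0.140 CPM in CT26 (median 0), and 0.0477, 0.0472, 0.0510, 0 and 0.0447 CPM in MC38. ALDH1A1, a retinaldehyde dehydrogenase used as a stem cell marker, was 687 to 819.9 CPM in HT29 (median 750.2), 0 to 0.138 CPM in CT26 (median 0.0596), and 3.39, 3.63, 2.91, 3.94 and 3.89 CPM in MC38. LRIG1, LEF1 and APCDD1 were lower in HT29. LRIG1, a brake on EGF receptors, was 27.04 to 37.3 CPM in HT29 (median 33.5), 101 to 118 CPM in CT26 (median 107), and 103, 104, 101, 81.8 and 88.3 CPM in MC38. The LRIG1 rank in HT29 minus that in the nearer mouse line was -20.4 points, with -19.6 when HT29 library 5 was left out and -19.96 in libraries 4 to 6 alone, which end the call. LEF1, a partner of beta-catenin, was 0 to 0.104 CPM in HT29 (median 0.0150), 8.67 to 11.8 CPM in CT26 (median 10.1), and 8.49, 9.16, 7.75, 9.42 and 8.40 CPM in MC38. TCF7, a related partner, was 33.4 to 44.7 CPM in HT29 (median 39.8), 0 in all 6 CT26 libraries, and 27.4, 29.5, 27.1, 21.6 and 23.5 CPM in MC38, so CT26 alone had no reads. SOX9, a crypt factor, lay within 10 points in HT29 and MC38 and lower in CT26, at percentile 85.6 in HT29, 56.9 in CT26 and 88.9 in MC38. CD44 was at or above percentile 97 in all 3 lines, and MYC was not called, at percentile 93.8 in HT29, 76.6 in CT26 and 70.8 in MC38.

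**Figure D4:**
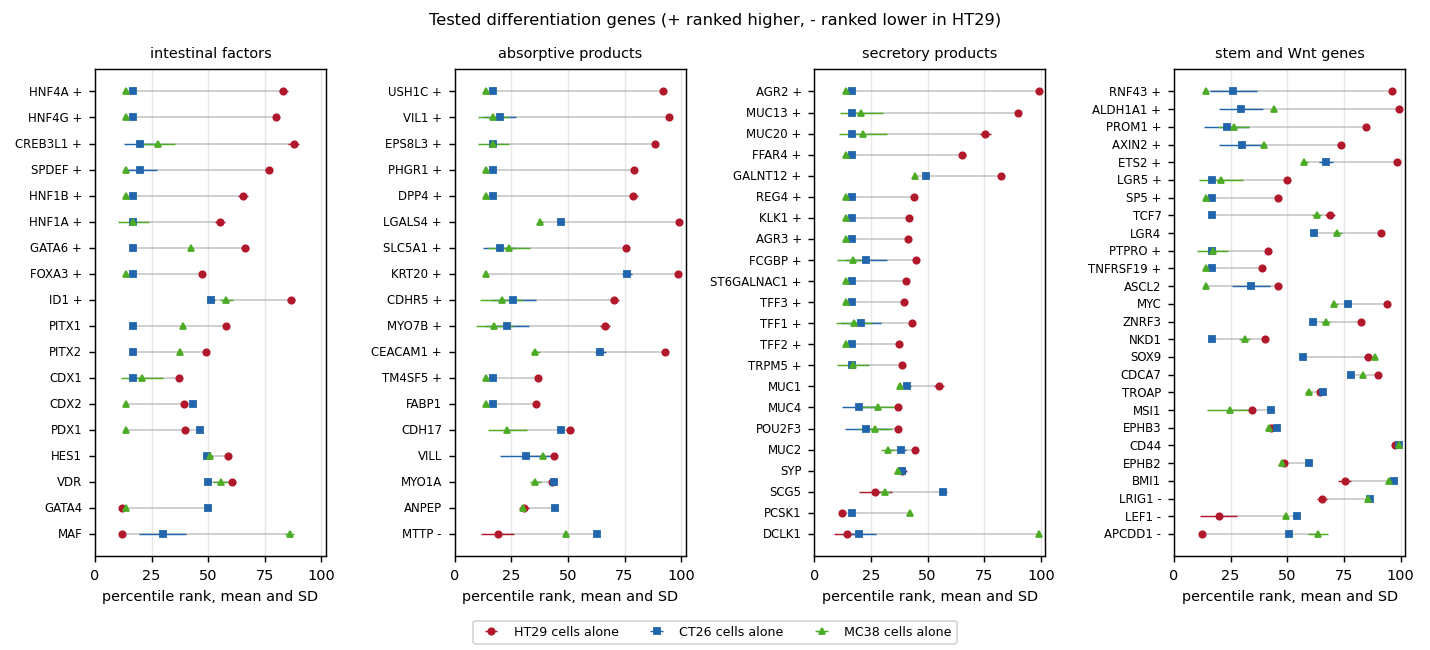
Mean percentile rank with SD of tested intestinal factors, absorptive products, secretory products and crypt or Wnt genes in HT29 (n = 6), CT26 (n = 6) and MC38 (n = 5); plus and minus signs after a symbol mark genes called higher or lower in HT29. Most HT29 points lie to the right of both mouse points. Exceptions that lie to the left of at least 1 mouse line by more than 30 points include DCLK1, MAF, MTTP, APCDD1, GATA4 and LEF1.

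Receptor tyrosine kinases were called in both directions, with EGFR and ERBB2 among those higher in HT29. Of 50 listed kinases 30 were tested, 12 were called higher in HT29 (background 12.7%), 7 lower (background 9.53%) and 11 neither. Over all 50 kinases the median percentile was 29.3 in HT29, 20.3 in CT26 and 40.8 in MC38, with 20 of them too low to be tested. Mean levels lay below 1 CPM for 28 of the 50 in HT29, 31 in CT26 and 23 in MC38. The shares called therefore partly restate the filter. EGFR, the receptor for EGF, was 117 to 151 CPM in HT29 (median 142), 0 to 0.351 CPM in CT26 (median 0.147), and 17.6, 19.3, 19.4, 19.2 and 17.7 CPM in MC38. EGFR was close to 0 in CT26, intermediate in MC38 and high in HT29, where it exceeded MC38 by 2.91 ± 0.09 and CT26 by 9.75 ± 0.16 on the log2 scale (SE; edgeR adjusted p = 2.3e-18 and 3.3e-23). ERBB2 was called higher as well, at percentile 96.6 in HT29, 58.7 in CT26 and 62.5 in MC38. ERBB3, a receptor for neuregulins, was 419 to 525 CPM in HT29 (median 487), 1.31 to 2.94 CPM in CT26 (median 1.77), and 90.9, 93.1, 86.8, 58.99 and 59.9 CPM in MC38. ERBB3 fell short of the call at 16.6 points from MC38 and passed it at 20.6 points in libraries 4 to 6. With all libraries its mean MC38 percentile was 81.9, which left less than 20 points above it. ERBB4 had 0 counts in all 17 libraries. MST1R (RON) was 81.4 to 93.4 CPM in HT29 (median 89.2), 0 in all 6 CT26 libraries, and 0.0477, 0.142, 0.0510, 0.150 and 0 CPM in MC38. FGFR4 was 55.1 to 68.8 CPM in HT29 (median 61.8), 0 to 0.0616 CPM in CT26 (median 0), and 0 in all 5 MC38 libraries, and EPHA1 was 37.2 to 45.4 CPM in HT29 (median 44.2), 0 in all 6 CT26 libraries, and 0 in all 5 MC38 libraries. MET, the receptor for hepatocyte growth factor, was 446 to 475 CPM in HT29 (median 465), 223 to 269 CPM in CT26 (median 237), and 97.7, 106, 106, 99.6 and 93.8 CPM in MC38. MET was not called, since all 3 lines held it at percentile 86.3 or above, where no higher call was possible. Every HT29 library nevertheless lay above every mouse library in MET CPM.

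Among the 7 kinases lower in HT29 were several known from mesenchymal cells. AXL, a receptor for GAS6, was 2.98 to 4.60 CPM in HT29 (median 3.76), 1020.3 to 1215 CPM in CT26 (median 1095), and 509, 521, 524, 442 and 472 CPM in MC38. DDR2, a collagen receptor, was 0.471 to 1.02 CPM in HT29 (median 0.878), 457 to 657 CPM in CT26 (median 520.2), and 831, 808, 820.0, 691 and 629 CPM in MC38. The HT29 and mouse libraries were far apart in both genes. PDGFRA was 0 to 0.0346 CPM in HT29 (median 0), 17.4 to 26.1 CPM in CT26 (median 20.8), and 542, 543, 534, 453 and 454 CPM in MC38, so the mouse lines differed from each other too. FGFR1 went the same way, at percentile 14.5 in HT29, 58.1 in CT26 and 96.5 in MC38, as did PDGFRB at percentile 27.4 in HT29, 63.3 in CT26 and 90.2 in MC38. FLT1 (a VEGF receptor) and INSR (the insulin receptor) were also called lower. DDR1, the collagen receptor of epithelia, was called higher in HT29 at percentile 97.04 in HT29, 50.4 in CT26 and 55.7 in MC38, the reverse of DDR2. MERTK was high in MC38 alone, at percentile 42.2 in HT29, 48.8 in CT26 and 80.7 in MC38, and ROR2 had counts in MC38 alone, at 7.497 CPM. IGF1R was not called, at percentile 85.6 in HT29, 88.8 in CT26 and 82.7 in MC38.

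Ligands of these receptors were mixed. Of 29 listed ligands 26 were matched, 21 tested, 5 called higher in HT29 (background 12.7%), 4 lower (background 9.53%) and 12 neither. Their median percentile was 40.6 in HT29, 51.5 in CT26 and 40.1 in MC38. AREG (amphiregulin), an EGFR ligand, was 108 to 126 CPM in HT29 (median 114), 5.83 to 8.30 CPM in CT26 (median 7.06), and 0.715, 0.330, 0.969, 0.798 and 0.894 CPM in MC38. TGFA, another EGFR ligand, was 91.8 to 101 CPM in HT29 (median 100.02), 6.85 to 11.4 CPM in CT26 (median 9.31), and 0 in all 5 MC38 libraries. HT29 was above both mouse lines in each, and CT26 above MC38. HBEGF, a further EGFR ligand, went the other way, at percentile 46.5 in HT29, 85.1 in CT26 and 50.7 in MC38, with HT29 close to MC38 and below CT26. NRG1 (neuregulin 1), a ligand of ERBB3, was 0 in all 6 HT29 libraries, 39.8 to 51.8 CPM in CT26 (median 45.4), and 37.1, 38.5, 37.4, 39.9 and 38.8 CPM in MC38. NRG1 had no read in HT29, and the mouse mean was at least 2767-fold (CT26) and 2337-fold (MC38) above the HT29 limit of 3 counts over its libraries. CSF1, the macrophage growth factor, was 0.897 to 1.28 CPM in HT29 (median 1.03), 136 to 149 CPM in CT26 (median 139), and 231, 232, 219, 205 and 213 CPM in MC38. FGF2 was 0 in all 6 HT29 libraries, 12.6 to 22.1 CPM in CT26 (median 16.4), and 1.14, 0.944, 1.12, 1.20 and 0.760 CPM in MC38, PDGFB was called higher in HT29 at 12.5 CPM, and VEGFC had counts in MC38 alone, at 13.6 CPM.

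Several integrin chains known from epithelial anchorage were higher in HT29. Of 25 listed integrin chains 18 were tested, 5 were called higher (background 12.7%), 1 lower (background 9.53%) and 12 neither. The chains had a median percentile of 37.6 in HT29, 41.9 in CT26 and 42.7 in MC38. ITGB4, the hemidesmosome chain that binds laminin with ITGA6, was 330.2 to 474 CPM in HT29 (median 415), 0.276 to 1.61 CPM in CT26 (median 0.833), and 4.77, 4.201, 4.03, 3.59 and 3.49 CPM in MC38. ITGB6, an epithelial chain that activates TGF-beta, was 63.8 to 78.4 CPM in HT29 (median 67.8), 0 to 0.123 CPM in CT26 (median 0), and 0.0954, 0, 0, 0 and 0.0447 CPM in MC38. ITGA2, a collagen receptor chain, was 125 to 132 CPM in HT29 (median 129.9), 0.413 to 1.11 CPM in CT26 (median 0.653), and 3.15, 3.45, 3.21, 3.89 and 4.16 CPM in MC38. ITGA3 and ITGB5 made up the 5, with mean percentiles of 97.2 in HT29, 67.6 in CT26 and 49.9 in MC38 for ITGA3 and percentile 95.7 in HT29, 71.1 in CT26 and 69.3 in MC38 for ITGB5. ITGA5, the fibronectin receptor chain, was the member called lower, at 0 to 0.0352 CPM in HT29 (median 0), 69.9 to 80.1 CPM in CT26 (median 75.8), and 97.5, 95.9, 86.3, 83.8 and 97.5 CPM in MC38. ITGA6, the partner of ITGB4, was high in all 3 lines at percentile 98.1 in HT29, 97.6 in CT26 and 85.5 in MC38, and ITGB1, the common beta chain, lay at percentile 99.3 in HT29, 99.7 in CT26 and 99.7 in MC38. ITGA8 was high in MC38 alone, at percentile 14.9 in HT29, 19.8 in CT26 and 84.6 in MC38, whereas ITGA1 was present in HT29 and MC38 and had 0 counts in CT26.

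Receptors for TGF-beta, BMP, Notch, Hedgehog and Wnt signals were called about as often as the background of 22.2%, with 9 of 34. All 38 were matched, 34 tested, 2 called higher in HT29 (background 12.7%), 7 lower (background 9.53%) and 25 neither. The median percentile was 52.6 in HT29, 59.03 in CT26 and 69.1 in MC38. SMO, the signal transducer of Hedgehog, was 0 to 0.0352 CPM in HT29 (median 0.0150), 127 to 143 CPM in CT26 (median 130.3), and 93.03, 86.3, 87.9, 87.01 and 95.4 CPM in MC38. NRP2, a co-receptor for semaphorins and VEGF, was 0.939 to 1.47 CPM in HT29 (median 1.22), 166 to 312 CPM in CT26 (median 239), and 345, 327, 304, 235 and 236 CPM in MC38. ACVR2A, an activin receptor, was 6.36 to 8.08 CPM in HT29 (median 6.97), 54.6 to 63.4 CPM in CT26 (median 56.6), and 61.1, 61.97, 60.6, 52.8 and 50.5 CPM in MC38. TGFBR1 and BMPR1A were also called lower, TGFBR1 at percentile 55.1 in HT29, 80.1 in CT26 and 82.99 in MC38 and BMPR1A at percentile 69.3 in HT29, 94.7 in CT26 and 95.02 in MC38, although both kept a clear level in HT29. TGFBR2 was not called, at percentile 91.2 in HT29, 73.1 in CT26 and 82.6 in MC38. FZD5, a Wnt receptor of gut epithelium, was 65.05 to 75.6 CPM in HT29 (median 69.7), 5.03 to 8.63 CPM in CT26 (median 7.27), and 6.58, 6.18, 4.85, 4.74 and 5.01 CPM in MC38, and PLXNB1, a semaphorin receptor, stood at percentile 93.1 in HT29, 42.5 in CT26 and 68.5 in MC38. FZD6 had no read in MC38 and 59.2 and 53.95 CPM in HT29 and CT26.

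Cytokine receptors were called in both directions. Of 42 listed receptors 38 were matched, 32 tested, 7 called higher in HT29 (background 12.7%), 6 lower (background 9.53%) and 19 neither. The median percentile was 47.4 in HT29, 43.7 in CT26 and 61.6 in MC38. IL22RA1, the chain that gives epithelia their response to interleukin 22, was 41.7 to 56.6 CPM in HT29 (median 50.9), 0 in all 6 CT26 libraries, and 0, 0, 0.0510, 0 and 0 CPM in MC38. TNFRSF21 (death receptor 6) was 154 to 182 CPM in HT29 (median 175), 0 in all 6 CT26 libraries, and 0, 0, 0.0510, 0 and 0 CPM in MC38. TNFRSF11A (RANK) was 19.7 to 22.4 CPM in HT29 (median 21.7), 0 to 0.0689 CPM in CT26 (median 0), and 0, 0.0472, 0.0510, 0 and 0 CPM in MC38. GHR, the growth hormone receptor, was 0 in all 6 HT29 libraries, 402 to 501 CPM in CT26 (median 439), and 148, 159, 166, 181 and 164 CPM in MC38. IL1RL1, the interleukin 33 receptor, was 0 in all 6 HT29 libraries, 73.4 to 83.5 CPM in CT26 (median 76.7), and 103, 109, 109.6, 110.0 and 109.9 CPM in MC38. IL1R1, the interleukin 1 receptor, was 0.313 to 0.668 CPM in HT29 (median 0.447), 85.2 to 99.02 CPM in CT26 (median 93.6), and 43.96, 43.4, 43.9, 51.1 and 46.9 CPM in MC38, and OSMR, the oncostatin M receptor, stood at percentile 14.4 in HT29, 44.99 in CT26 and 76.4 in MC38. The shared signal chain IL6ST was not called, at percentile 89.2 in HT29, 90.3 in CT26 and 97.5 in MC38. Interferon receptors were kept by all lines: IFNGR1 stood at percentile 79.8 in HT29, 70.95 in CT26 and 86.7 in MC38 and IFNAR1 at percentile 70.3 in HT29, 78.3 in CT26 and 82.7 in MC38. LIFR was high in MC38 alone, at percentile 12.2 in HT29, 19.9 in CT26 and 67.6 in MC38, and IL13RA1 was low in CT26 alone, at percentile 83.1 in HT29, 38.9 in CT26 and 79.7 in MC38.

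Nuclear and G protein-coupled receptors gave 13 higher calls (background 12.7%), 6 lower (background 9.53%) and 20 neither, of 39 tested among 55 matched of 56 listed. Over the 55 the median percentile was 33.4 in HT29, 22.98 in CT26 and 38.1 in MC38. Mean levels lay below 1 CPM for 30 of the 55 in HT29, 33 in CT26 and 33 in MC38. Of the 55, 7 were above 10 CPM in HT29 and below 1 CPM in both mouse lines, and 4 the reverse. Many members thus passed the filter through the lines where they are high, and the shares called partly restate it. NTSR1, the neurotensin receptor, was 156 to 193 CPM in HT29 (median 175), 0 in all 6 CT26 libraries, and 0 in all 5 MC38 libraries. PPARG, a lipid-sensing nuclear receptor of colon epithelium, was 111 to 128 CPM in HT29 (median 118), 0 to 0.298 CPM in CT26 (median 0), and 0 in all 5 MC38 libraries. F2RL1 (PAR2), a protease-activated receptor, was 58.6 to 67.5 CPM in HT29 (median 65.9), 0 in all 6 CT26 libraries, and 0 in all 5 MC38 libraries. NR3C1, the glucocorticoid receptor, was 0 to 0.105 CPM in HT29 (median 0), 308 to 413 CPM in CT26 (median 349.9), and 146, 145, 159, 179.8 and 168 CPM in MC38. NR3C1 was thus at 3 counts over all HT29 libraries and far higher in each mouse library. ESR1 was 0 in all 6 HT29 libraries, 19.2 to 34.2 CPM in CT26 (median 25.4), and 19.5, 21.1, 23.01, 16.6 and 15.7 CPM in MC38, without a read in HT29. LPAR1, a lysophosphatidic acid receptor, was 0 to 0.0785 CPM in HT29 (median 0), 42.9 to 54.9 CPM in CT26 (median 51.2), and 23.2, 22.8, 24.9, 24.4 and 25.97 CPM in MC38. RARB had counts in CT26 alone, at 7.20 CPM, and EDNRA had nearly all of its counts in MC38, at 6.21 CPM.

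**Figure D5:**
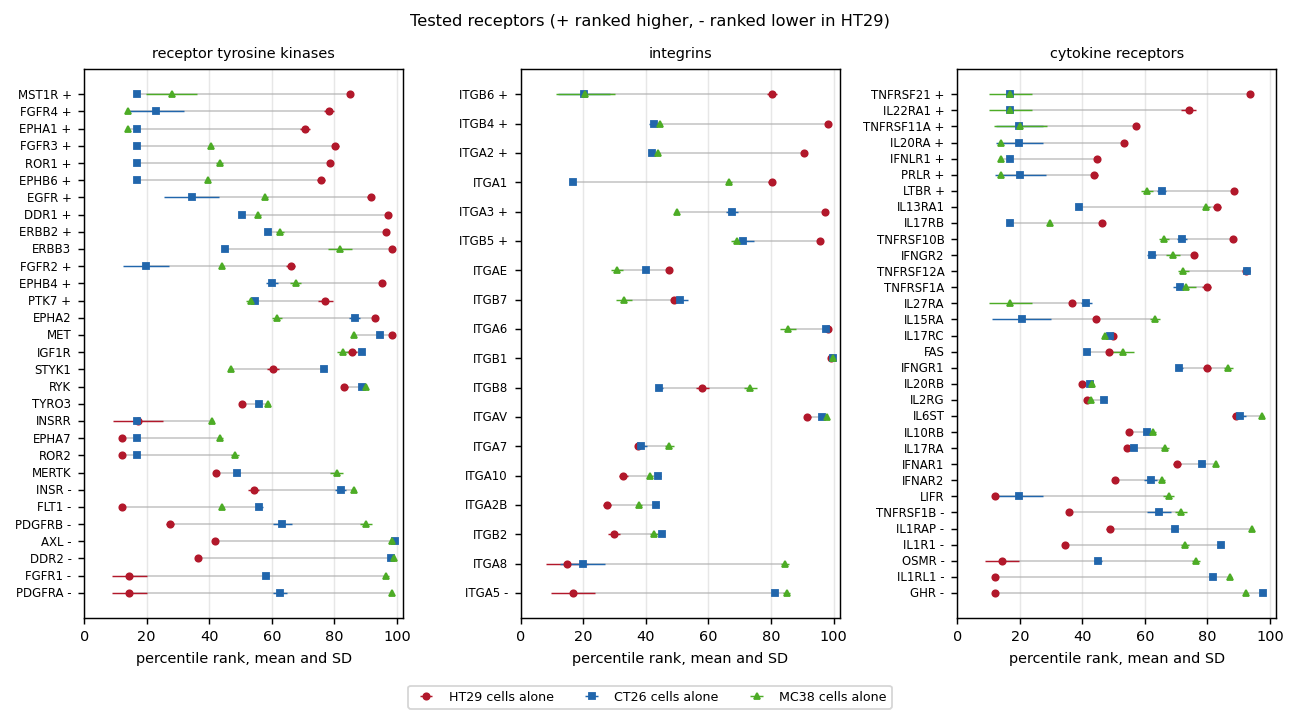
Mean percentile rank with SD of the tested receptor tyrosine kinases, integrins and cytokine receptors in HT29 (n = 6), CT26 (n = 6) and MC38 (n = 5); plus and minus signs mark receptors called higher or lower in HT29. HT29 points lead at the top of each panel and trail at the bottom, where AXL, DDR2, ITGA5 and GHR lie at percentile 42 or below in HT29 and above 80 in both mouse lines.

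Proteasome subunits served as a reference list of genes needed by every cell. All 31 were matched and tested, and 0 were called in either direction, against a background of 22.2%. Their median percentile was 91.96 in HT29, 90.6 in CT26 and 93.1 in MC38. A member at the median rank of either mouse line had less than 20 points above it, so it could not be called higher. For such members the absence of calls is informative on the lower side only, where the background was 9.53%. Under an adjusted p alone, with no rank distance, 92.5% of all tested genes differed from MC38. The contrast with the epithelial lists lay in the size of the rank shift, which was a median of 66.6 points against CT26 and 69.5 against MC38 for junction and keratin genes and 2.30 and 0.155 for proteasome subunits.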

How the data were processed

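PolyA RNA of 17 cells-alone libraries was analysed. For either species the authors deposited a gene table of expected counts (estimated, not normalised); per the submitters' processing notes the tools include cutadapt, STAR and RSEM and the builds mm10 and hg38. On strand in the counting, nothing is given in the sources used here. Between 2244 and 4113 values per library were not whole, and all were rounded. Genes were joined by symbol, which can join genes that are not orthologs and drops renamed ones. Counts were fitted by edgeR 4.0.16 (R 4.3.3): TMM scaling, filterByExpr with a minimum count of 10, and 1 quasi-likelihood fit of the 3 lines, with SE from the log2 fold change and F. The fit was tried on simulated data in which the lines shared 1 mean per gene, apart from 200 shifted genes. Only the adjusted p was scored, so the rank distance that decides the calls was not checked by it.

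The members and lists were chosen with earlier results of these data known. Named genes were 12 fixed anchors and, per list, up to 3 called per direction and 2 close to 1 mouse line, plus 6 per direction outside the lists; other members are named to account for their list. No 2 libraries were identical (40 pairs within lines, chi-square per degree of freedom 1.55 to 69.9). Limits of 3 counts cover counting error only, whereas SEs come from the fit and include the spread between libraries. Human coordinates and gene lengths were not used here, so length was not corrected. Alternatives included RLE size factors, DESeq2, limma on ranks, other rank distances, library subsets and a replicate block. The mouse genes were placed on GENCODE M21. A few list members enter the counts and medians but are not reported here by name.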

Additional observations from a re-analysis of the deposited data

Results flagged for a closer look

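Each value below is a library whose gap to its neighbours was large against the range of its group (Dixon's criterion at the 95% level). Of 211 groups examined 9 met it, where chance gives about 1 in 20. Among single genes, ESRP1 was 255 CPM in HT29 library 6 against 278 to 291 in the other HT29 libraries. ERBB3 was 2.94 CPM in CT26 library 3 against 1.31 to 1.91 in the others. EPHA1 was 37.2 CPM in HT29 library 5 against 42.5 to 45.4. ITGA2 was 125 CPM in HT29 library 1 against 129 to 132. ACVR2A was 63.4 CPM in CT26 library 2 against 54.6 to 56.7. IL1RL1 was 103 CPM in MC38 library 1 against 109 to 110.0. In each of these 6 genes the gap within the line was small beside the distance between HT29 and the line or lines it was called against, or, for ERBB3, beside the HT29 level.

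Among list medians, the epithelial regulators stood at percentile 72.6 in HT29 library 5 against 75.2 to 76.6 in the other HT29 libraries, and the secretory products at 37.1 in HT29 library 3 against 37.9 to 38.3. The receptor tyrosine kinases had a median percentile of 34.9 in CT26 library 1 against 16.4 to 17.1 in the other CT26 libraries, where the median member had no count. A single count placed a gene at percentile 34.4 to 35.7 in CT26 libraries.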

How the results depend on the processing

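The 2673 calls were the same genes with RLE size factors, DESeq2, limma on normal scores of ranks and the replicate block (2673 shared in each). These alternatives change the test or the scaling but not the ranks, and over 90% of the genes pass the test, so they could hardly move a call and say little about stability. The calls were also all kept with no filter on low counts (2710 calls) and with all 34 libraries in the fit (2690). With libraries thinned to 1 depth, an alternative added after the data were seen, 2628 were shared of 2681, with libraries 1 to 3 alone 2560 of 2673, and with libraries 4 to 6 alone 2529 of 2665. No gene was called in the opposite direction under any of these. Leaving out 1 library at a time gave 1509 to 1535 higher and 1139 to 1167 lower calls. The mesenchymal structural genes called higher, TAGLN and ACTA2, ranged from 0 (without MC38 library 1) to 2, with 1 without MC38 library 2. The intestinal factors called lower ranged from 1 to 2.

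Other rank distances moved the counts by their construction. A distance of 10 points gave 2761 higher and 2447 lower calls and 14 mesenchymal structural genes lower in HT29. A distance of 30 points gave 729 higher, 494 lower and 5 secretory products higher, and LGR5, TAGLN, ACTA2, LEF1, LRIG1, PDGFB, FGF2, FZD5 and PLXNB1 fell below it. When ranks were taken only over genes expressed in both species, which drops genes absent from 1 species, 2696 genes were called, of which 1292 were among the 2673. Dropped genes could not be called there. Among the named genes that stayed, 28 kept their result, 1 (ERBB3) became called and 0 were weaker. How many members of each list stayed was not counted, so the counts that follow have no share beside them. In that setting 5 junction and keratin genes, 3 epithelial regulators, 3 absorptive products and 1 secretory product were higher, and 1 mesenchymal structural gene, 3 mesenchymal regulators and 3 receptor tyrosine kinases lower. Intestinal factors had 3 higher and 0 lower, EGF and hepatocyte growth factor ligands 3 and 2, and cytokine and interferon receptors 2 and 3. Among nuclear and G protein-coupled receptors 1 was lower. On the lower side 0 integrins and 0 absorptive products were called, and on the higher side 0 mesenchymal structural genes. Against MC38 alone, 1740 genes, 19 mesenchymal structural genes and 11 receptor tyrosine kinases were lower, since 1 distance fewer was asked.

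Replicate numbers did not pair HT29 with the mouse libraries: deviations of same-numbered libraries correlated at -0.025 to 0.10 with CT26 (1 of 6 above 0.1) and -0.022 to 0.10 with MC38 (1 of 5). Between CT26 and MC38 all 5 correlations were positive, at 0.099 to 0.21, with 4 above 0.1. Both mouse lines split between libraries 1 to 3 and 4 to 6, with a chi-square per degree of freedom of 40.3 to 69.9 across that split and at most 12.2 within it. With the replicate block, 1526 genes were higher and 1147 lower, and no call changed. A correction for gene length was not run, as lengths of both species were not used here. Depth limits the low end, where 1 read moves a rank by many points.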

Other observations

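Outside the lists, the genes with the widest rank distance from both mouse lines belonged to several functions. BMP4, a secreted growth factor of the BMP family, was 496 to 535 CPM in HT29 (median 515), 0 in all 6 CT26 libraries, and 0 in all 5 MC38 libraries. GPX2, the glutathione peroxidase of gut epithelium, was 403 to 453 CPM in HT29 (median 436), 0 in all 6 CT26 libraries, and 0 in all 5 MC38 libraries. TSPAN1, a tetraspanin, was 382 to 424 CPM in HT29 (median 399), 0 in all 6 CT26 libraries, and 0 in all 5 MC38 libraries. TMPRSS4, a membrane serine protease, was 244 to 266 CPM in HT29 (median 253), 0 in all 6 CT26 libraries, and 0 in all 5 MC38 libraries. ABCC3, an organic anion exporter, was 420.5 to 482 CPM in HT29 (median 462), 0 in all 6 CT26 libraries, and 0.0954, 0, 0, 0 and 0 CPM in MC38. These 5 genes were without a read in CT26, and ABCC3 alone among them had reads in MC38 (2 counts). UGT1A10, a glucuronosyltransferase, was 235 to 273 CPM in HT29 (median 254), 0 in all 6 CT26 libraries, and 0 in all 5 MC38 libraries, but it shares exons with the other UGT1A genes, so its own share of those reads is uncertain.

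In the other direction, SPP1 (osteopontin), a secreted phosphoprotein, was 0 to 0.0392 CPM in HT29 (median 0.0173), 2401 to 3219 CPM in CT26 (median 2863), and 1644, 1663, 1687, 2000.3 and 1943 CPM in MC38. CD34, a sialomucin known from blood progenitors and vessels, was 0 to 0.0392 CPM in HT29 (median 0), 858 to 1210.0 CPM in CT26 (median 1022), and 315, 330.3, 323, 321 and 309.9 CPM in MC38. BNIP3, a mitophagy receptor induced by low oxygen, was 0 to 0.0785 CPM in HT29 (median 0), 767 to 1112 CPM in CT26 (median 940.1), and 505, 532, 593, 691 and 646 CPM in MC38. CCND2 (cyclin D2), which drives entry into the cell cycle, was 0 in all 6 HT29 libraries, 315 to 366 CPM in CT26 (median 337), and 176, 166, 171, 180.3 and 187 CPM in MC38. SDC2, a heparan sulfate proteoglycan, was 0 in all 6 HT29 libraries, 197 to 242 CPM in CT26 (median 219.8), and 328, 359.5, 356, 315 and 286 CPM in MC38. AMOTL1, an angiomotin of cell junctions, was 0 in all 6 HT29 libraries, 179.9 to 225 CPM in CT26 (median 194), and 205, 203, 194, 170.4 and 165 CPM in MC38. HT29 had at most 3 counts over its 6 libraries in each of these 6 genes, while both mouse lines held them above percentile 93.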
